A study of Mus musculus with 16 samples.

Results

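The comparison described here sets 4 one-colour arrays of vehicle-treated mouse cortical astrocyte cultures against 4 of vehicle-treated mouse cortical neuron cultures. The series holds 16 arrays, and the other 8 are of the same kinds of culture given 1 nM recombinant Klotho, a secreted protein known for its link to ageing. The members were chosen by title, and every gene with a usable signal was taken: 16500 genes with a symbol, of 21368 on the array, and 30545 units when probes without a symbol are counted singly. The question was how far the families and pathways of the 2 cell types differ beyond the markers that name them.

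Both groups came from C57BL/6 mice and received 1xPBS for 24 h. The astrocyte cultures were grown from cortices of pups of postnatal days 0 to 5 with the meninges removed, kept in DMEM with 10% serum, and shaken for 15 h to reach the stated purity of over 98%. The neurons came from E16 cortices and were held in Neurobasal with B27 for 14 days in vitro. The sample labels give E16 for the astrocytes too, against the growth protocol. No agent against dividing cells and no serum is named for the neuron cultures. Nothing says whether the replicates of a group were separate cultures, so a p-value here rests on array-to-array spread alone and that spread could be technical. All neuron controls lay on 1 slide and all astrocyte controls on another, so cell type, slide, medium and donor age cannot be told apart in any value below.

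Astrocytes and neurons of the cortex share an ancestor in the radial glia of the embryo. Neurons carry signals along axons, release transmitter from vesicles and set their excitability with ion channels. Astrocytes clear transmitter and potassium, supply lactate and lipid to neurons, build a basement membrane at vessels, and when stressed turn on filament, complement and interferon-stimulated genes. Cultured in serum, they divide and spread as flat cells on plastic.

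On each array 61.9% to 67.3% of spots were well above background and none was saturated. Pairwise correlations over tested units were 0.979 to 0.996 within the neuron controls and 0.767 to 0.837 between the cell types. The astrocyte controls fell into pairs by their row on the slide: arrays 1 and 2, in row 1, correlated at 0.995, arrays 3 and 4, in row 2, at 0.985, and arrays of different rows at 0.940 to 0.945. The main fit counts the astrocyte controls as 4 separate replicates and has no term for the row. If arrays of a row are not separate cultures, its standard errors may be too small. For some families the median by row is given as well. The deposited value table also places the signals of astrocyte arrays 2 and 4 under Klotho columns and keeps arrays 1 and 3 as controls. With arrays 1 and 3 alone, 3754 genes were called higher in astrocytes and 4240 in neurons, against 4302 and 5125 with all 4.

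Levels are log2 processed signals minus the 75th percentile of their array, so 0 marks a signal brighter than most of that array's spots. Differences are log2, astrocyte minus neuron, and a negative difference is higher in neurons. Each is given with the moderated standard error (SE) from limma. Its variance is pooled over both groups of 4 arrays and drawn toward that of all tested units. A gene is called at an adjusted p under 0.05 from limma, with Benjamini-Hochberg adjustment over all 30545 units. Of the 16500 genes, 26.1% were called higher in astrocytes and 31.1% higher in neurons, and 13.3% and 12.8% were also at least 4-fold apart (2197 and 2109 genes). The median difference over all of them was -0.16 and the median SE 0.28. For 26.7% of genes every astrocyte array lay above every neuron array, and for 33.2% the reverse held. A family's counts are to be read against these shares. A member that entered only through the group in which it was bright had to differ, so the counts describe the lists and are no separate support for them.

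For a gene not well above background on any array of a group only a bound is given ("at least N-fold"): the brighter group's mean against the higher of the dim probe's signal and the lowest signal well above background on each array. Of the called genes, 353 were above background on every astrocyte array and on no neuron array, and 503 the reverse. Among the largest bounds on the neuron side were those of Sst, the somatostatin precursor (at least 4395-fold higher), Cpne4, a copine (at least 986-fold), and Ntsr1, a neurotensin receptor (at least 950.2-fold). On the astrocyte side they included those of Ifit1, an interferon-induced protein that binds viral RNA (at least 467-fold), Omd, the matrix proteoglycan osteomodulin (at least 271-fold), and Trim30a, an interferon-induced TRIM protein (at least 267-fold).

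**Figure D1:**
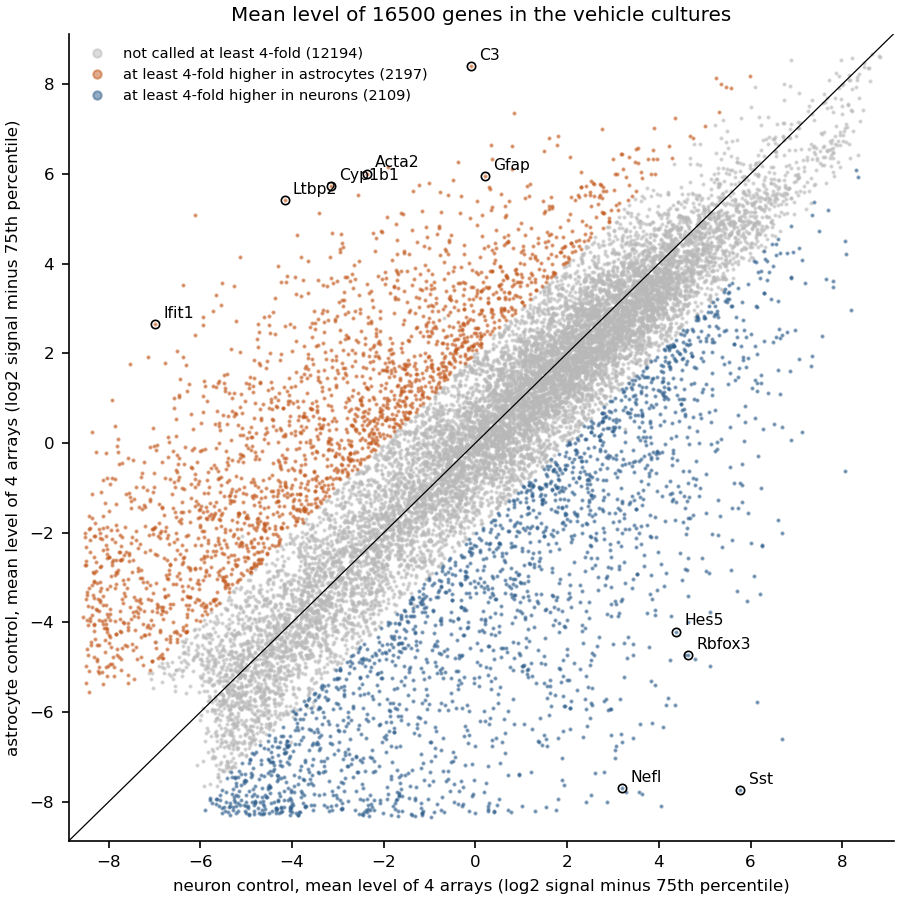
Mean level of 16500 genes on the 4 neuron control arrays (horizontal) against the 4 astrocyte control arrays (vertical), both as log2 signal minus the 75th percentile, with the line of equality and 10 labelled genes. Orange points (2197) were called at least 4-fold higher in astrocytes and blue points (2109) in neurons; low values on either axis include signals not above background.

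Among genes above background on all 8 arrays, the largest difference on the astrocyte side was that of Ltbp2, a latent TGF-beta binding protein of the matrix. Its level was 4.92, 4.78, 5.60 and 6.37 on astrocyte control arrays 1 to 4 and -4.34, -3.85, -4.28 and -4.19 on neuron control arrays 1 to 4, a difference of 9.58 ± 0.35 (adjusted p = 1.7e-07). Every astrocyte array lay above every neuron array by a wide margin. Cyp1b1, a cytochrome P450 of xenobiotic, steroid and retinoid oxidation (8.88 ± 0.28), and Tgm2, the tissue transglutaminase (8.26 ± 0.57), followed the same pattern. On the neuron side, Rbfox3, the splicing factor known as NeuN, had levels of -5.24, -5.05, -4.02 and -4.62 on astrocyte control arrays 1 to 4 and 5.07, 4.59, 4.48 and 4.43 on neuron control arrays 1 to 4. That is a difference of -9.37 ± 0.30 (adjusted p = 9.6e-08), again with no overlap. Tmem130, a neuronal membrane protein (-9.46 ± 0.33), and Igsf21, an adhesion protein of inhibitory synapses (-9.02 ± 0.40), were also among the 10 largest on that side.

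Markers of the labelled cell types were on the labelled side. Gfap, the astrocyte intermediate filament, was at 6.38, 6.26, 5.37 and 5.81 on astrocyte control arrays 1 to 4 and -1.30, 0.49, 1.04 and 0.62 on neuron control arrays 1 to 4 (5.75 ± 0.49). The neuron arrays were lower but not at background. Nefl, the light neurofilament, was at 3.83, 3.09, 2.98 and 2.92 on neuron arrays 1 to 4 and above background on no astrocyte array (at least 736-fold higher in neurons). Sst was at 6.34, 5.44, 5.78 and 5.57 on the same neuron arrays and likewise not well above background on any astrocyte array. Of 10 astrocyte markers 8 were higher in astrocytes, and the exceptions were Slc1a2, the main glutamate transporter of mature astrocytes (-0.39 ± 0.19, adjusted p = 0.12, and -1.90 ± 0.54 with another probe), and Aldoc, an aldolase (0.42 ± 0.32, adjusted p = 0.3). Of 10 neuron markers 9 were higher in neurons, all at least 4-fold, the exception being Snap25 (-0.077 ± 0.65, adjusted p = 0.93), for which the array holds a single tested probe.

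Markers of other cells moved with the groups as well. Of 11 microglial markers, 10 were higher in astrocyte cultures, all at least 4-fold, with a median of 5.57. Their summed signal (in units of the array's 75th percentile) was 138 to 241 on astrocyte arrays and 34.4 to 39.7 on neuron arrays. Cx3cr1, the microglial fractalkine receptor, was at 4.14, 4.27, 4.01 and 4.17 on astrocyte control arrays 1 to 4 and -4.76, -3.30, -2.43 and -2.18 on neuron control arrays 1 to 4. All 11 were above background on every astrocyte array. The 1 that was not called was Itgam, a chain of the complement receptor (0.23 ± 0.62, adjusted p = 0.79), of which another probe gave 2.76 ± 0.22. The brightest probe of Itgam had a mean level of 5.07 on the neuron arrays and made up most of their summed signal. The probe that gave 2.76 was at -3.83 there. Ependymal and choroid plexus markers split, with 5 of 7 tested higher in astrocytes. Ttr, transthyretin (-5.66 ± 0.74, above background on 3 astrocyte arrays), and Prlr, the prolactin receptor (-1.16 ± 0.22), were higher in neuron cultures. Ttr is also counted in the list of liver genes below. All 4 tested pericyte and smooth muscle markers were higher in astrocytes (summed signal 50.8 to 152 against 2.82 to 4.11), with 3 of the 8 listed above background on no astrocyte array. Meningeal fibroblast markers went both ways, 5 of 9 tested higher in astrocytes and 4 in neurons. Of 8 endothelial markers 3 were tested, and only Flt1, a VEGF receptor (3.25 ± 0.52), was called. In the neuron cultures, 9 of 10 interneuron and 7 of 8 projection-neuron markers were higher, and 6 of 11 oligodendrocyte-lineage markers were too, led by Pdgfra, the receptor of oligodendrocyte precursors (-3.75 ± 0.23). The exception among interneuron markers was Lhx6 (-0.044 ± 0.76, adjusted p = 0.97), and a dimmer probe of that gene, above background on no astrocyte array, was higher in neurons. Camk2a, the exception among projection-neuron markers, missed the threshold with its brightest probe (-0.73 ± 0.28, adjusted p = 0.059), and another gave -1.92 ± 0.39. In these bulk samples, fewer cells of a type and less RNA per cell cannot be told apart, and the part of these markers in the results below was not tested.

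Of a list of liver genes, 10 of 13 tested were higher in neuron cultures, all at least 4-fold. Alb, serum albumin, was at least 90.5-fold higher and Ahsg, fetuin-A, at least 44.6-fold higher. Alb was at 0.94, -0.99, 0.64 and 0.13 on neuron control arrays 1 to 4. Trf, transferrin, which glia also make, was the member higher in astrocytes (3.37 ± 0.24). The summed signal of the list, Trf included, was 18.1 to 23.8 on astrocyte controls, above every neuron control, 10.6 to 17.1 on neuron controls and 5.79 to 6.97 on the neuron arrays given Klotho. Serpina1a, an alpha-1-antitrypsin gene, above background on 1 astrocyte control array, differed by -6.69 ± 0.50 in the vehicle arrays and by -0.60 in the Klotho arrays.

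**Figure D2:**
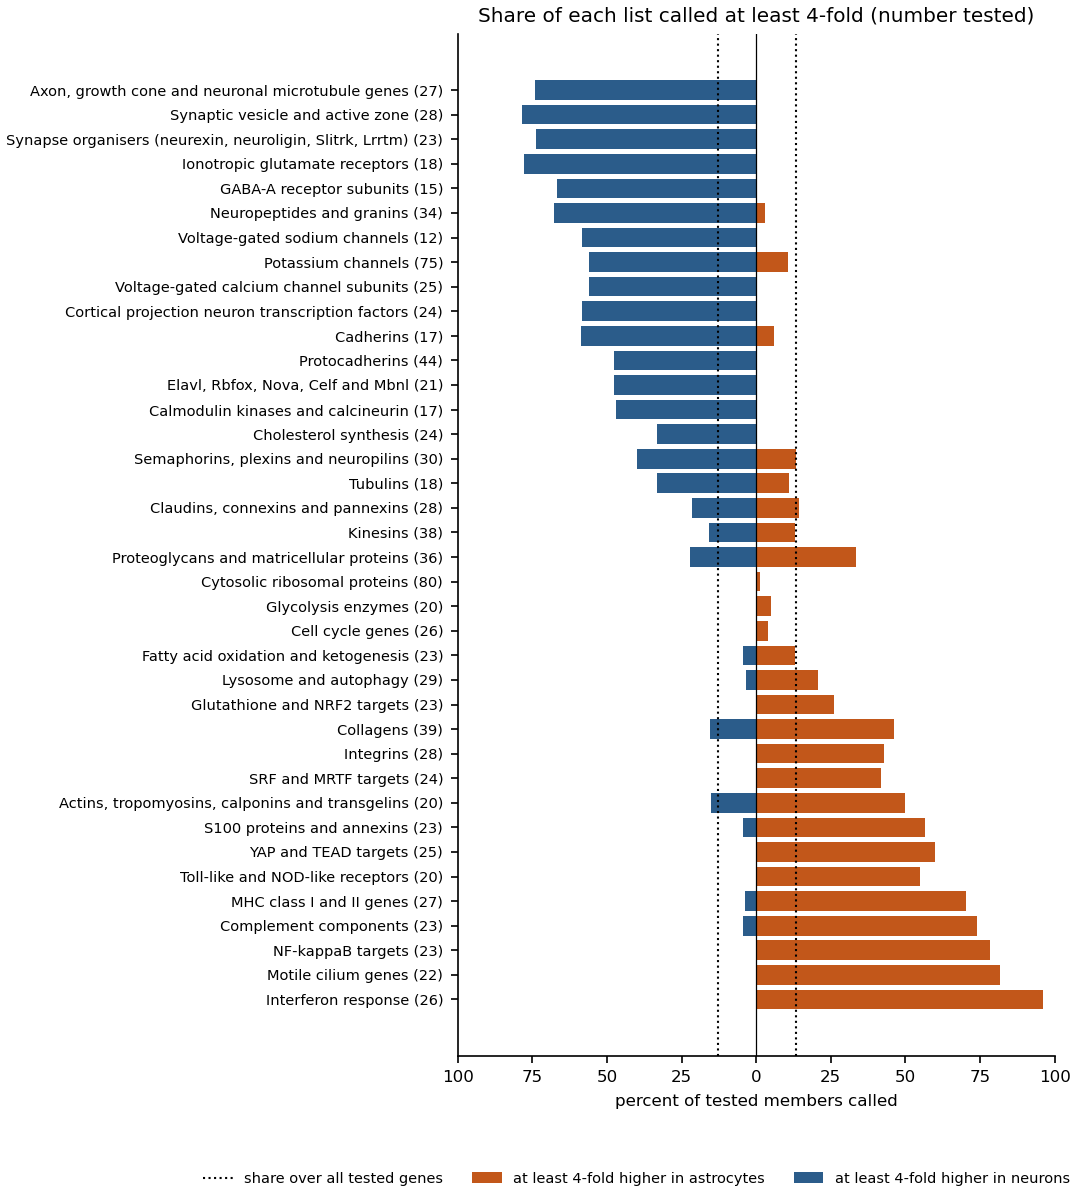
Percent of the tested members of 38 gene lists called at least 4-fold higher in astrocytes (orange, to the right) or in neurons (blue, to the left), with the number tested in brackets and the shares over all 16500 genes, 13.3% and 12.8%, as dotted lines. Synaptic, channel, cadherin and protocadherin lists extend to the left, and immune, ciliary, contractile and integrin lists to the right. Ribosomal, glycolytic and cell cycle lists stay inside the dotted lines.

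Genes of excitability were called mostly on the neuron side. Voltage-gated sodium channels carry the rising phase of the action potential. Of their 12 tested subunits 7 were higher in neurons, all at least 4-fold, and none in astrocytes. Scn1a, a subunit known for epilepsy mutations, was at least 253-fold higher, and Scn3a, the fetal subunit, differed by -7.52 ± 0.21. Scn8a, the subunit of mature axon initial segments, did not pass the test with its brightest probe (0.38 ± 0.35, adjusted p = 0.4), and another probe gave -2.31 ± 0.27.

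Potassium channels bring the membrane back to rest and set firing patterns. Of 92 listed members 75 were tested, of which 12 were higher in astrocytes and 51 in neurons, 8 and 42 of them at least 4-fold, with a median of -2.37 (-2.22 with bounds). The large-conductance, calcium-activated channel Kcnma1 was at -5.45, -5.23, -4.66 and -4.04 on astrocyte control arrays 1 to 4 and 4.58, 4.14, 4.16 and 4.11 on neuron control arrays 1 to 4 (-9.09 ± 0.32). All neuron arrays lay above all astrocyte arrays. The astrocyte side held few members. The largest were Kcnj13, an inward rectifier of epithelia (4.83 ± 0.27), and Kcnn4 (at least 30.3-fold higher), the intermediate-conductance channel found in microglia and blood cells. Kcnj10, the inward rectifier with which astrocytes buffer potassium, differed by 3.26 ± 0.29. Kcnd3, an A-type channel, was not called (-0.037 ± 0.19, adjusted p = 0.89).

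Voltage-gated calcium channel subunits couple depolarisation to vesicle release. Here 19 of 25 tested were higher in neurons and 2 in astrocytes. The T-type pores Cacna1i (-7.92 ± 0.24, but -0.16 ± 0.30 with another probe) and Cacna1g (-7.67 ± 0.40, above background on 2 astrocyte arrays) led among the measured members, and Cacng2, the AMPA receptor partner stargazin, was at least 396-fold higher. On the astrocyte side were the auxiliary subunits Cacnb1 (1.42 ± 0.33) and Cacnb2 (1.35 ± 0.22, and 0.66 ± 0.38, not called, with another probe). Genes of calcium stores and buffering followed, 18 of 27 higher in neurons, among them Ryr2, a ryanodine receptor (-4.91 ± 0.45). The 3 members higher in astrocytes were Orai3 (1.67 ± 0.31), a store-operated channel, Itpr2 (1.34 ± 0.37), the IP3 receptor of astrocyte calcium waves, and Pvalb, parvalbumin (1.62 ± 0.26).

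Ion pumps of the plasma membrane and calcium stores leaned to neurons, with 8 of 16 genes higher there and 4 in astrocytes. The plasma membrane calcium pumps Atp2b3 (at least 269.9-fold) and Atp2b2 (-5.41 ± 0.63) were higher in neurons, and Atp1b2, a sodium pump beta subunit associated with astrocytes, differed by 0.044 ± 0.26, adjusted p = 0.9.

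Second messengers of the calcium and cyclic AMP pathways leaned to neurons. Of 17 calmodulin kinase and calcineurin genes 13 were higher in neurons and 1 in astrocytes, Camk1 (0.99 ± 0.32). Camkv, a kinase-like protein of spines (-8.70 ± 0.26), and Camk2b, a subunit of the kinase of synaptic plasticity (-5.42 ± 0.25), were among them, and Camk2g (-0.012 ± 0.18, adjusted p = 0.96) and Camk2d (0.21 ± 0.25, adjusted p = 0.51) were not called. Among phosphodiesterases and adenylate cyclases 14 of 26 were higher in neurons, including the calcium-activated cyclase Adcy1 (-6.50 ± 0.44) and Pde2a (-5.95 ± 0.34), against Adcy7 (1.92 ± 0.24) and Pde8b (1.45 ± 0.21) in astrocytes. RGS proteins, which shorten G protein signals, split. Among 20 tested, 7 were higher in astrocytes and 9 in neurons, 4 and 7 of them at least 4-fold. Rgs4 (-5.24 ± 0.24) was higher in neurons, Rgs1, known from leukocytes, was at least 21.3-fold higher in astrocyte cultures, and Rgs12 was not called with its brightest probe (0.19 ± 0.18, adjusted p = 0.39), while 2 others gave 0.97 ± 0.19 and 1.56 ± 0.20.

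HCN and TRP channels, which pass mixed cations, were higher in neurons in 10 of 20 cases, for instance Hcn3 (-4.88 ± 0.33) and Trpc4 (-4.44 ± 0.36), while Trpv4, an osmosensor (2.23 ± 0.33), and Trpm6 (1.58 ± 0.27) were higher in astrocytes. Of 11 nicotinic and glycine receptor subunits 7 were higher in neurons, and Glra2, the fetal glycine receptor subunit, was at least 279.6-fold higher. Chrnb1, a subunit of the muscle receptor, was at least 21.4-fold higher in astrocytes.

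Transmitter receptors of the glutamate and GABA families were mostly on the neuron side. Of 18 ionotropic glutamate receptor subunits, which are cation channels opened by glutamate, 15 were higher in neurons and 14 of these by at least 4-fold. Grin1, the obligate NMDA receptor subunit, was at -5.13, -5.34, -4.35 and -4.09 on astrocyte control arrays 1 to 4 and 3.21, 1.58, 1.67 and 1.52 on neuron control arrays 1 to 4 (-6.72 ± 0.45), with array 1 the highest of the neuron arrays. Gria1 (-5.87 ± 0.51) and Grin2b (-5.59 ± 0.44) were close behind. The 1 subunit higher in astrocytes was the AMPA receptor gene Gria3 (1.18 ± 0.27, and 0.88 ± 0.34, not called, with another probe). All 7 tested metabotropic glutamate receptors were higher in neurons, and these included Grm5 (-7.21 ± 0.30) and Grm3 (-2.07 ± 0.25), both known also from astrocytes. Of 15 GABA-A receptor subunits 12 were higher in neurons, and Gabrb1 alone was higher in astrocytes (1.05 ± 0.30).

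Monoamine and muscarinic receptors were less one-sided, with 17 of 30 higher in neurons and 6 in astrocytes. The serotonin receptor Htr2c was at least 96.5-fold higher in neurons. The astrocyte side included the adrenergic receptors Adrb3 (3.59 ± 0.19) and Adra1a (2.47 ± 0.31, above background on 1 neuron array).

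The release machinery gave a median of -4.17 over 28 genes of synaptic vesicles and the active zone, with 23 higher in neurons, 22 of them at least 4-fold. Mean levels of the list were 2.75, 2.06, 2.16 and 2.10 on neuron arrays 1 to 4 and -2.17, -2.25, -1.57 and -1.68 on astrocyte arrays 1 to 4. Syt1, the calcium sensor of fast release, was at -2.02, -1.93, -2.29 and -2.84 on astrocyte control arrays 1 to 4 and 7.0, 6.01, 6.06 and 5.97 on neuron control arrays 1 to 4 (-8.53 ± 0.31). No array of either group fell between the groups. Sv2b, a vesicle glycoprotein, was at least 489-fold higher in neurons and Cplx1, a complexin that clamps the release complex, differed by -10.40 ± 0.49, above background on 1 astrocyte array. Snap25 was not called, as above. The brightest probe of Cplx2 was not called (-0.44 ± 0.62, adjusted p = 0.58), whereas another of its probes gave -3.17 ± 0.22. Vamp1 was the 1 member higher in astrocytes (1.06 ± 0.34). Over the wider SNARE family, which serves all membrane fusion, the split was even among 34 tested members. In astrocytes 9 were higher and in neurons 8, which is 26.5% and 23.5% against 26.1% and 31.1% of all genes. At least 4-fold apart were 3 and 6 of them. There Vamp8, a SNARE of lysosomal fusion (4.98 ± 0.51), led the astrocyte side. Stxbp5l (at least 66.3-fold higher) and the endocytic adaptor Snap91 (-5.66 ± 0.28) led the neuron side. Snap91 is not a SNARE and was counted because the family was picked by gene symbol. The SNARE median was -0.11, and it turned positive after quantile normalization (0.058) and with the row 1 astrocyte arrays alone (0.076).

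Synapse organisers, the adhesion proteins that align the sides of a synapse, had no tested member higher in astrocytes, and 22 of 23 were higher in neurons. Cbln1, cerebellin 1, a secreted bridge between neurexins and glutamate receptors, was at least 604-fold higher. Slitrk1, an inducer of presynaptic contacts, differed by -8.86 ± 0.24, above background on 3 astrocyte arrays. Nlgn3, a neuroligin also found in glia, was not called with its brightest probe (-0.66 ± 0.31, adjusted p = 0.1), and another gave -1.13 ± 0.30. Of 23 postsynaptic scaffold genes 17 were higher in neurons, Dlgap3 (-7.98 ± 0.38) and the calmodulin-binding Nrgn (-7.43 ± 0.25) among them, while Homer3 (0.75 ± 0.18) and Iqsec1 (0.92 ± 0.26) were higher in astrocytes.

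Neuropeptides, granins and their processing enzymes make up the cargo of dense-core vesicles. Of 34 tested, 27 were higher in neurons and the median was -4.27. Cck, cholecystokinin, was at -6.09, -6.27, -7.49 and -6.58 on astrocyte control arrays 1 to 4 and 7.29, 6.38, 6.62 and 6.44 on neuron control arrays 1 to 4 (-13.29 ± 0.35, above background on 1 astrocyte array). All neuron arrays were above 6 and all astrocyte arrays below -6. Neurotensin, Nts, was at least 196-fold higher and Tac1, the substance P precursor, at least 137-fold higher. The 1 member higher in astrocytes was Pcsk6, a proprotein convertase that acts on growth factors (3.81 ± 0.22). The granin Scg3 (0.26 ± 0.26, adjusted p = 0.44) and carboxypeptidase E, Cpe (0.36 ± 0.17, adjusted p = 0.1), which serve regulated secretion, were not called with their brightest probes, and another probe of Cpe gave 1.14 ± 0.19.

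Transporters and enzymes of glutamate and GABA went mostly to neurons, 13 of 21 against 5. Slc32a1, the vesicular GABA transporter (-11.90 ± 0.69, above background on 2 astrocyte arrays), and Gad2, a GABA-synthesising enzyme (-8.88 ± 0.61, above background on 2 astrocyte arrays), were the largest among genes with a measured astrocyte value. The vesicular glutamate transporter Slc17a7 was at least 61.2-fold higher. Slc1a3, the glutamate transporter GLAST, was higher in astrocytes (1.30 ± 0.30), but Glul, glutamine synthetase, held to be an astrocyte enzyme, was higher in the neuron cultures. Its level was 4.04, 3.79, 3.51 and 3.17 on astrocyte control arrays 1 to 4 and 4.42, 4.79, 4.62 and 4.52 on neuron control arrays 1 to 4 (-0.96 ± 0.23, adjusted p = 0.0073). The arrays of the groups did not overlap, although the margin was small. The GABA transporter Slc6a11, which in brain tissue is described in astrocytes, was also higher in neuron cultures (-6.17 ± 0.35).

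Intermediate filaments, the rope-like filaments that give a cell its tensile strength, differ between cell types. Of 63 listed, many of them keratins, 34 were tested, of which 7 were higher in astrocytes and 16 in neurons, 5 and 11 of them at least 4-fold. Gfap, Nes, nestin (3.20 ± 0.30), Sync, syncoilin (5.62 ± 0.26, above background on 1 neuron array), and Krt18, an epithelial keratin (2.90 ± 0.35), were higher in astrocytes. Besides Nefl, the neuron side held Ina, alpha-internexin (-7.88 ± 0.23), and Nefh, the heavy neurofilament (at least 78.7-fold). Synm, synemin, was not called (-0.028 ± 0.21, adjusted p = 0.92).

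Tubulins build microtubules and also split by isotype. Tubb3, the neuronal beta-tubulin, was at 0.13, -0.029, -1.79 and -1.86 on astrocyte control arrays 1 to 4 and 6.10, 5.71, 5.64 and 5.62 on neuron control arrays 1 to 4 (-6.66 ± 0.48). Tuba1c, an alpha-tubulin, ran the other way with 5.19, 5.30, 3.73 and 3.90 on astrocyte control arrays 1 to 4 and -2.06, -1.59, -1.66 and -1.52 on neuron control arrays 1 to 4 (6.24 ± 0.39). The 2 genes had opposite differences, each with no overlap of the groups. Of 18 tubulins 11 were higher in neurons and 4 in astrocytes, and the alpha-tubulin Tuba1b was not called with its brightest probe (-0.31 ± 0.32, adjusted p = 0.45), while another gave -1.01 ± 0.21. Tubulin genes are near copies of each other, and a probe may bind more than 1 of them.

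Microtubule motors had members on both sides. Of 38 kinesins 11 were higher in astrocytes and 11 in neurons, and of 23 dyneins 10 and 7. Among kinesins, Kif5a (-5.25 ± 0.23) and Kif5c (-3.58 ± 0.25), which haul cargo down axons, and Kif21b (-4.99 ± 0.26) were higher in neurons. The probes of Kif5a disagree, and another of them was higher in astrocytes (2.89 ± 0.33). The kinesins highest on the astrocyte side were Kif27 (3.98 ± 0.21), Kif9 (3.36 ± 0.24) and Kif6 (2.66 ± 0.26), which are known from motile cilia. Of the dyneins, Dync1i1, an intermediate chain of cytoplasmic dynein, differed by -8.89 ± 0.22, whereas the axonemal heavy chains Dnah6 (6.55 ± 0.56) and Dnah11 (5.27 ± 0.65) and the light intermediate chain Dnali1 (6.46 ± 0.67) were higher in astrocytes. Of the 27 listed axon, growth cone and neuronal microtubule genes, all tested, 25 were higher in neurons and none in astrocytes. Dcx, doublecortin, of migrating young neurons (-10.08 ± 0.77, above background on 2 astrocyte arrays), and Stmn4, a stathmin (-8.69 ± 0.26), were among the largest.

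**Figure D3:**
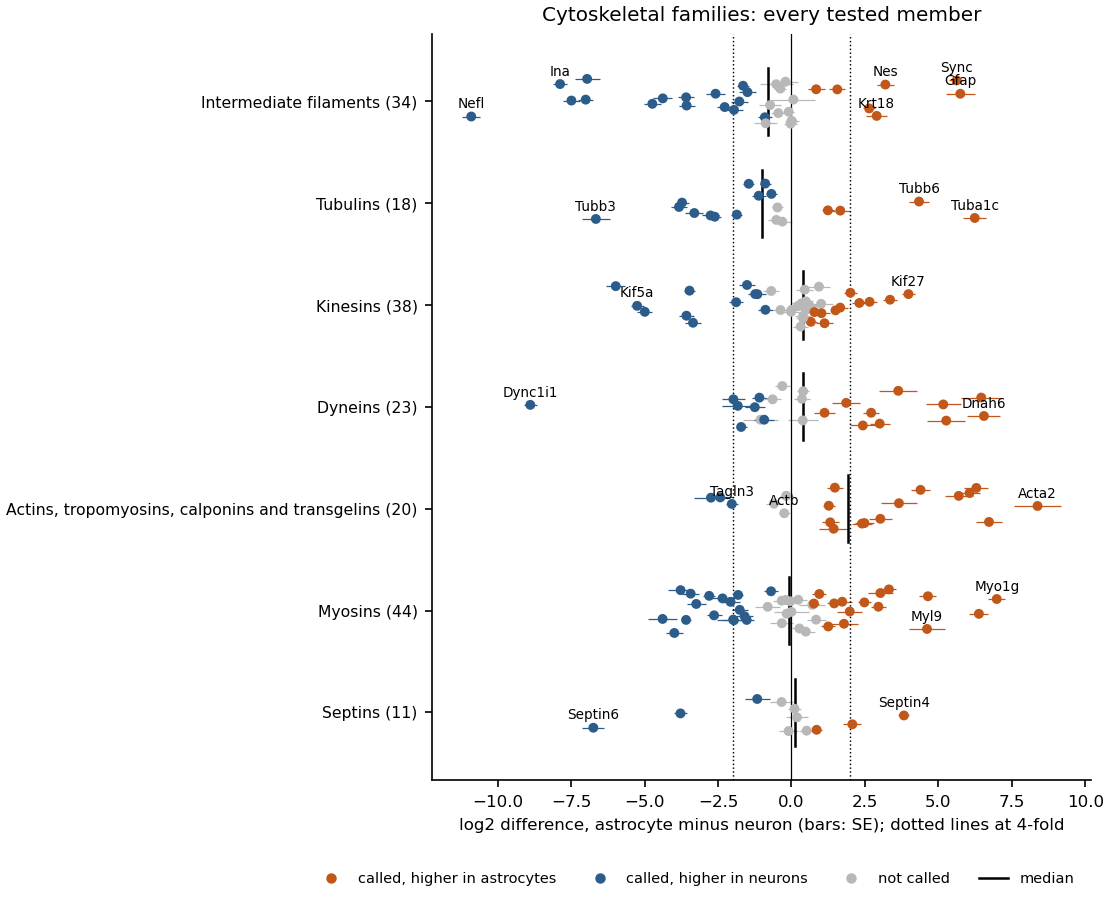
Log2 difference, astrocyte minus neuron, of every tested member of 7 cytoskeletal families, with SE bars, black lines at the family medians and dotted lines at 4-fold; differences of genes not above background in a group are as measured. Most families reach beyond 4-fold on both sides of 0, with Nefl, Tubb3 and Dync1i1 to the left and Gfap, Tuba1c and Acta2 to the right.

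Actin-based contractile genes were on the astrocyte side. Of 20 tested actins, tropomyosins, calponins and transgelins, 14 were higher in astrocytes and 3 in neurons, 10 and 3 of them at least 4-fold. Acta2, smooth muscle actin, was at 6.69, 6.52, 5.03 and 5.79 on astrocyte control arrays 1 to 4 and -4.65, -0.53, -2.06 and -2.24 on neuron control arrays 1 to 4 (8.38 ± 0.79, adjusted p = 2.7e-05). The neuron arrays spread widely but none reached the astrocyte arrays. Cnn1, calponin 1 (6.73 ± 0.45), Tagln, transgelin (6.29 ± 0.41), and Cnn2 (6.06 ± 0.34) were next. The neuronal paralogue Tagln3 was higher in neurons (-2.03 ± 0.20). The cytoplasmic actins Actb (-0.24 ± 0.20, adjusted p = 0.33) and Actg1 (-0.59 ± 0.28, adjusted p = 0.1) were not called with their brightest probes, and of the other probes of Actg1 the 2 called ones gave -1.72 ± 0.61 and -0.73 ± 0.27.

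Serum response factor, SRF, and its actin-sensing cofactor MRTF are known to switch on such genes, and YAP, a coactivator of the TEAD factors, responds to cell spreading. Of 24 tested SRF and MRTF targets 15 were higher in astrocytes and 1 in neurons, which was Fhl2, a LIM protein (-0.91 ± 0.29). Srf itself was not called with its brightest probe (-0.32 ± 0.22, adjusted p = 0.26), and another gave 1.37 ± 0.24. Of 25 tested YAP and TEAD targets 20 were higher in astrocytes, 60% of the tested by at least 4-fold, and the median was 2.35. That list also counts the regulators Yap1, Wwtr1 and Tead3. Ccn2, connective tissue growth factor, was at 7.51, 7.42, 7.25 and 7.21 on astrocyte control arrays 1 to 4 and 0.63, 1.24, 0.83 and 0.67 on neuron control arrays 1 to 4 (6.51 ± 0.20). Arrays within a group were close together. Ccn1, a secreted matrix protein (5.13 ± 0.46), Ajuba, a LIM scaffold of cell junctions (4.89 ± 0.23), and Nuak2, a kinase (4.41 ± 0.19), followed. The summed smooth muscle and pericyte markers given above moved in the same direction as both lists. They include the contractile genes Acta2 and Cnn1, and Acta2 made up much of the astrocyte sum, so the shared direction is no separate support.

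The promoters of these targets were read for the sites of the 2 factors. The CArG box, to which SRF binds, was sought on both strands in the 250 bases before each start site (RefSeq, GRCm38.p6). It was present in 7 of 20 tested SRF targets with a promoter in the table and in 1.34% of 16916 promoters. The TEAD motif GGAATG was present in 9 of 19 genes of the YAP list and in 11.5% of all promoters. The regulators Yap1, Wwtr1 and Tead3 are among these 9. Because the lists hold known targets, and the YAP list regulators too, these shares describe them only. Shown are, for each motif, the 2 genes that carry it and had the largest differences, written 5′ to 3′ in the gene's direction with the motif in capitals. A CArG box reads nearly alike on both strands and is counted once here. The windows are chr10:79988350-79988599, plus strand, for Cnn2, chr2:156775214-156775463, plus strand, for Myl9, chr3:145649986-145650235, minus strand, for Ccn1, and chr14:54577662-54577911, minus strand, for Ajuba.
Cnn2: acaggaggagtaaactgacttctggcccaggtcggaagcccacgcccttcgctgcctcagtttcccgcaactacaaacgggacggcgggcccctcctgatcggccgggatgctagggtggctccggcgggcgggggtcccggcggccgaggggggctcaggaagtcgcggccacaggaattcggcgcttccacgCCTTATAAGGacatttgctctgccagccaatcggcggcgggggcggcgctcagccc
Myl9: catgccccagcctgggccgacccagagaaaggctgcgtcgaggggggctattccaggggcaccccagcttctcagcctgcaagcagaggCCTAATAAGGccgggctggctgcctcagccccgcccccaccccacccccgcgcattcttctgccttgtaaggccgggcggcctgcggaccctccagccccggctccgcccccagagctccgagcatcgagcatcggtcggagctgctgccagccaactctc
Ccn1: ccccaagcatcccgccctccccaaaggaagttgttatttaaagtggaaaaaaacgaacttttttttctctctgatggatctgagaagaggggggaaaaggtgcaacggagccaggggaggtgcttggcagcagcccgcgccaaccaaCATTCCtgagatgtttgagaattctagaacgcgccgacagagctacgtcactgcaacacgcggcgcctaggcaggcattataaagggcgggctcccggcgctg
Ajuba: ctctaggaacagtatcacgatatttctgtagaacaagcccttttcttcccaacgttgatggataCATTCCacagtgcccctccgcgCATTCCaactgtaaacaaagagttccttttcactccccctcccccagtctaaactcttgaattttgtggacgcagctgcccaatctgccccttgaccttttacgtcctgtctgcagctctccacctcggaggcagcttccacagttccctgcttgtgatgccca
Myl9, the regulatory light chain of smooth muscle myosin, differed by 4.62 ± 0.61. Its box began 161 bases before the start and that of Cnn2 56 bases before it. The myosin family had 44 tested members, with 15 higher in astrocytes and 17 in neurons, 8 and 10 of them at least 4-fold. Its median was -0.10 and 0.035 after quantile normalization, with the leukocyte motors Myo1g (6.99 ± 0.29, above background on 3 neuron arrays) and Myo1f (6.38 ± 0.32, above background on 3 neuron arrays) leading on the astrocyte side.

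Matrix and adhesion genes did not move as a block. Collagens form fibres and sheets outside the cell. Of 44 listed 39 were tested, of which 19 were higher in astrocytes and 8 in neurons, 18 and 6 of them at least 4-fold. Col8a1 (8.55 ± 0.57, above background on 1 neuron array) and Col8a2 (7.14 ± 0.64, above background on 3 neuron arrays), chains of a network collagen, and Col4a6 (7.27 ± 0.72), a basement membrane chain, led the astrocyte side. Col25a1, a transmembrane collagen of neurons, was at least 34.2-fold higher in neurons, and Col23a1, also membrane-bound, differed by -3.43 ± 0.27. The enzymes that crosslink and hydroxylate collagen were higher in astrocytes in 12 of 14 cases, for instance Loxl2 (4.97 ± 0.46) and Loxl3 (3.82 ± 0.37), the exception on the neuron side being P3h1 (-3.17 ± 0.28), of which another probe gave 0.64 ± 0.24.

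The 36 tested proteoglycans and matricellular proteins divided evenly: 16 were higher in astrocytes and 14 in neurons, 12 and 8 of them at least 4-fold. Fmod, fibromodulin, was at 3.36, 3.23, 3.75 and 2.91 on astrocyte control arrays 1 to 4 and -4.38, -2.99, -3.95 and -4.32 on neuron control arrays 1 to 4 (7.22 ± 0.34), with the 4 astrocyte arrays all above 0 and the neuron arrays all below. Spp1, osteopontin (6.47 ± 0.71), and Thbs1, thrombospondin 1, which promotes synapse formation (5.82 ± 0.26), were also higher in astrocytes. Neuron cultures had more of Vcan, versican (-3.54 ± 0.25), Sdc3, the neuronal syndecan (-3.33 ± 0.28), and Tnr, tenascin R of perineuronal nets (-3.05 ± 0.41). Lum, lumican, was at least 7.4-fold higher in neurons. Agrn, agrin, was not called (0.02 ± 0.21, adjusted p = 0.95). The list's median of 0.35 was -0.066 with the row 1 astrocyte arrays. Enzymes that build and sulfate the chains leaned to neurons (14 of 32 against 5), with Hs3st2, a heparan sulfotransferase, at least 232-fold higher, and Sulf1, which removes sulfate, higher in astrocytes (5.22 ± 0.31).

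Integrins, the receptors by which cells grip the matrix, were higher in astrocytes in 16 of 28 cases and in neurons in 1, Itga8 (-1.37 ± 0.19). Itga1, a collagen receptor, was at 1.28, 1.07, 1.54 and 1.38 on astrocyte control arrays 1 to 4 and -5.59, -4.08, -4.83 and -5.27 on neuron control arrays 1 to 4 (6.26 ± 0.32), again without overlap. Itgb2, the leukocyte beta chain also carried by microglia, differed by 5.41 ± 0.20. Classical cadherins and protocadherins, which mediate contact between like cells, were the opposite. Of 17 cadherins 14 were higher in neurons, such as Cdh13 (-4.80 ± 0.24) and Cdh8 (-3.96 ± 0.22), and of 44 tested protocadherins 31 were, Pcdh8 (-5.55 ± 0.34) among them. The 2 cadherins higher in astrocytes were Cdh19 (at least 36.8-fold), known from Schwann cell precursors, and N-cadherin, Cdh2 (0.48 ± 0.18).

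Gap junction and tight junction proteins split by member. Gjb6, connexin 30 of astrocytes (3.21 ± 0.36, above background on 1 neuron array), and Cldn2, a claudin (at least 29.4-fold), were higher in astrocytes. Gjd2, connexin 36 of electrical synapses, was at least 130.0-fold higher in neurons and Panx2, a pannexin, differed by -5.74 ± 0.26. S100 proteins and annexins, small calcium-binding proteins, leaned to astrocytes in 18 of 23 cases with a median of 2.94, led by Anxa3 (9.27 ± 0.47, above background on 3 neuron arrays) and Anxa1 (6.77 ± 0.65). Metalloproteinases and their inhibitors, 57 tested, showed no lean: 22 were higher in astrocytes and 17 in neurons, 14 and 15 of them at least 4-fold. Timp1, an inhibitor raised in reactive glia, was higher in astrocytes (5.43 ± 0.80, above background on 3 neuron arrays), and Timp2 was not called with its brightest probe (-0.0032 ± 0.31, adjusted p = 0.99), while another gave 2.40 ± 0.38.

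Axon guidance genes leaned to neurons, with a minority in astrocytes. Of 30 semaphorins, plexins and neuropilins 16 were higher in neurons and 8 in astrocytes. Sema3b, a secreted repellent, was at 5.11, 5.00, 5.21 and 5.40 on astrocyte control arrays 1 to 4 and -1.59, -1.18, -0.93 and -0.97 on neuron control arrays 1 to 4 (6.35 ± 0.21), the astrocyte arrays lying within a narrow band above the neuron arrays. The membrane-bound Sema4f (-6.32 ± 0.31) and Sema6c (-5.04 ± 0.20) were higher in neurons. Among ephrins and their receptors, Epha2 (4.94 ± 0.25) and Ephb4 (2.70 ± 0.28) were higher in astrocytes, while Efnb3 (-6.96 ± 0.36) and Epha3 (-5.11 ± 0.18) were higher in neurons. Epha4, found in both cell types, was not called (0.05 ± 0.16, adjusted p = 0.81). Slit1, a repellent (-7.64 ± 0.30), and the netrin receptor Unc5a (-5.63 ± 0.28) were higher in neurons, against Ntn4 (2.90 ± 0.24) and Ntn1 (2.50 ± 0.25), both netrins, in astrocytes.

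Morphogen families were mixed, and their parts lay on different sides. The Wnt receptor Fzd6 (5.03 ± 0.43) was higher in astrocytes and Fzd9 (-5.50 ± 0.20) in neurons. The Wnt amplifier Rspo2 was at least 198-fold higher in neurons, where the Wnt inhibitor Wif1 was as well (at least 14.4-fold). In the TGF-beta and BMP family the receptor Tgfbr2 (4.94 ± 0.42), the ligand Bmp6 (5.82 ± 0.50) and the feedback inhibitor Smad6 (6.22 ± 0.42, above background on 3 neuron arrays) were higher in astrocytes. Gdf10, a ligand of the same family, was at least 57.6-fold higher in neurons. Hedgehog signalling genes were higher in astrocytes in 10 of 17 cases, including the target Gli1 (3.80 ± 0.64), while Ptch1, also a target, was not called (0.44 ± 0.47, adjusted p = 0.46).

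Among growth factors, Clcf1 (5.42 ± 0.32) and Cntf (5.36 ± 0.62), cytokines of the ciliary neurotrophic family, and Csf1, on which microglia depend (5.00 ± 0.31), were higher in astrocytes. Nrg3, a neuregulin, was at least 26.5-fold higher in neurons, where Ngfr, the low-affinity neurotrophin receptor (-4.13 ± 0.32), and Ntrk3, the receptor of neurotrophin 3 (-3.68 ± 0.30), were higher too. Bdnf was not called (-0.22 ± 0.47, adjusted p = 0.72). The IGF system leaned to astrocytes with Igf1 (3.33 ± 0.22, and 3.58 ± 0.22 with another probe, although 2 further probes gave -0.39 ± 0.24 and -0.05 ± 0.26), Igfbp5 (3.03 ± 0.31) and Igfbp2 (2.88 ± 0.28).

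Transcription factors of the neuronal lineage were mostly higher in neurons. Of 24 projection-neuron factors 19 were higher in neurons. Neurod6, a bHLH factor of pyramidal cells, was at 2.63, 2.54, 2.56 and 2.33 on neuron control arrays 1 to 4 and at least 456-fold higher. Bcl11b, of subcerebral neurons, differed by -7.90 ± 0.24. Otx1 was the 1 factor higher in astrocytes (1.42 ± 0.21). Families with glial factors held members on both sides, with 6 of 15 tested Sox genes higher in astrocytes and 6 in neurons. The factors on the astrocyte side included Sox9 (2.34 ± 0.27), which sets glial fate, Id3 (4.05 ± 0.28) and Id1 (2.39 ± 0.30), which block bHLH factors and respond to BMP, and Foxj1 (5.37 ± 0.31), the master factor of motile cilia. Sox11, of young neurons, was higher in neurons (-4.60 ± 0.25).

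Notch signalling keeps radial glia undifferentiated, and its parts did not move together. Of 25 Notch and radial glia genes, 12 were higher in astrocytes and 6 in neurons, 6 and 5 of them at least 4-fold. Hes5, the Notch target of neural stem cells, was higher in the neuron cultures, at -4.98, -4.80, -3.02 and -4.01 on astrocyte control arrays 1 to 4 and 4.55, 4.78, 4.14 and 4.06 on neuron control arrays 1 to 4 (-8.59 ± 0.43, adjusted p = 6.5e-07). Neuron arrays were all above 4 and astrocyte arrays all below 0. The ligands Dll3 (-4.93 ± 0.22) and Dll1 (-2.53 ± 0.22) were higher there as well, and Hes1 was not called (-0.28 ± 0.28, adjusted p = 0.44). Prom1, prominin (3.83 ± 0.39), Vim, vimentin (2.64 ± 0.20), and the receptor Notch2 (2.58 ± 0.43) were higher in astrocytes.

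Rest, the repressor of neuronal genes outside neurons, was higher in astrocytes, at 0.90, 0.83, 1.25 and 1.55 on astrocyte control arrays 1 to 4 and -1.27, -0.61, -0.74 and -0.77 on neuron control arrays 1 to 4 (1.98 ± 0.24). Every astrocyte array was above 0 and every neuron array below. Its cofactor Rcor2 was higher in neurons (-3.60 ± 0.21), and Rcor1 was not called with its brightest probe (0.17 ± 0.21, adjusted p = 0.55), while another gave -0.53 ± 0.19. The splicing regulators Ptbp1 (1.95 ± 0.17) and Ptbp2 (-1.60 ± 0.26), which replace each other as neurons mature, had opposite signs. Of 21 tissue-specific RNA-binding proteins 14 were higher in neurons, with Rbfox1 (-8.63 ± 0.22) and Elavl3 (-8.23 ± 0.23) after Rbfox3, and Mbnl1 (1.45 ± 0.20) and Mbnl2 (1.35 ± 0.18, with 1.51 ± 0.32 and 0.14 ± 0.22 from its other probes) were higher in astrocytes. Of 39 nuclear receptors, 14 were higher in astrocytes and 14 in neurons, 5 and 6 of them at least 4-fold. Nr1h3, the oxysterol receptor LXR alpha (4.75 ± 0.26), and Vdr, the vitamin D receptor (3.27 ± 0.46, above background on 3 neuron arrays), were higher in astrocytes, and Esr1, the oestrogen receptor, was at least 6.64-fold higher in neurons. The Sox, forkhead and KLF families likewise had members on both sides, such as Foxc1, of meningeal and vascular mesenchyme (3.95 ± 0.33), and Klf2 (2.38 ± 0.46) in astrocytes and Foxo6 (-5.37 ± 0.20), Klf8 (-4.07 ± 0.18) and Pou3f1 (-4.93 ± 0.22) in neurons. Of 39 listed Hox genes, which pattern the hindbrain and cord, 8 were tested, with 1 called higher in astrocytes and 3 in neurons. The large zinc finger family was close to the centre: of 376 tested, 9 and 17 were at least 4-fold apart, 2.39% and 4.52%.

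**Figure D4:**
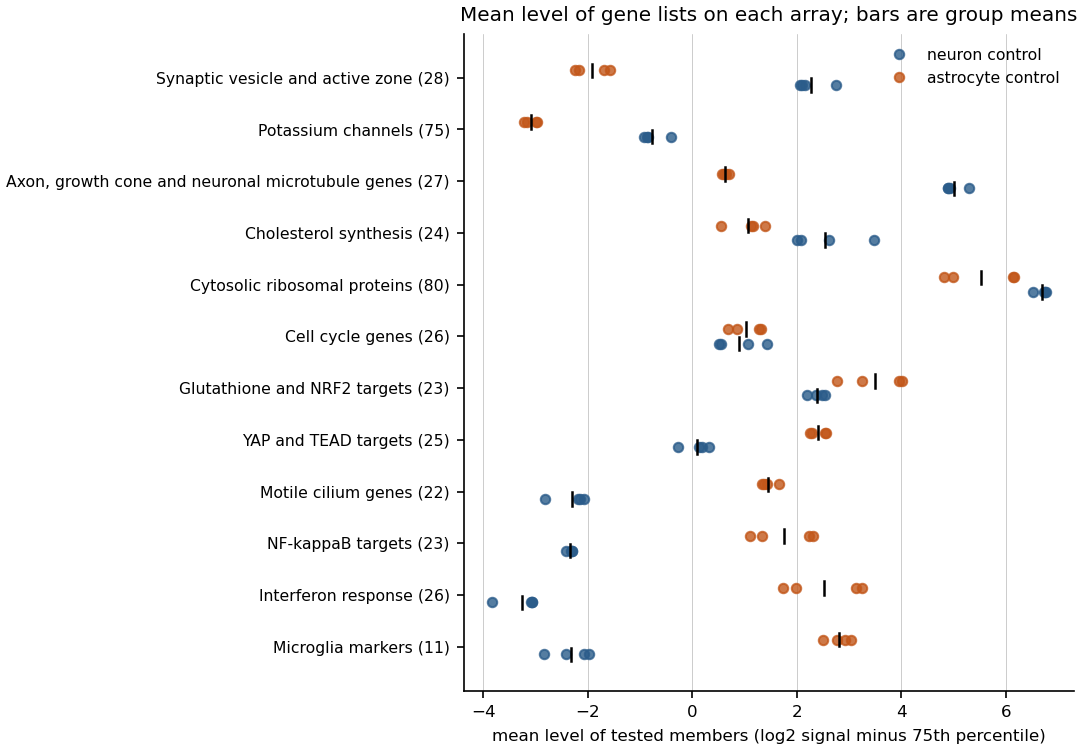
Mean level of the tested members of 12 lists on each of the 8 arrays (log2 signal minus the 75th percentile), neuron controls in blue and astrocyte controls in orange, with black bars at the group means. The groups overlap for cell cycle genes; for ribosomal protein, NRF2, NF-kappaB and interferon genes the 4 astrocyte arrays fall into 2 pairs.

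In central energy metabolism few genes were far apart. Glycolysis splits glucose to pyruvate and lactate. Of 20 glycolytic genes 3 were higher in astrocytes and 4 in neurons, and the median of -0.27 became 0.19 after quantile normalization. Hk2, the inducible hexokinase, was at 0.82, 0.97, 0.098 and 0.45 on astrocyte control arrays 1 to 4 and -2.92, -2.22, -2.45 and -2.32 on neuron control arrays 1 to 4 (3.06 ± 0.26, adjusted p = 1.4e-05), with no overlap. It was the only glycolytic gene at least 4-fold apart. The lactate dehydrogenases went in opposite directions, Ldhb higher in astrocytes (1.46 ± 0.31) and Ldha higher in neurons (-1.12 ± 0.31), as did Pfkfb3 (0.80 ± 0.18, and 0.47 ± 0.37, not called, with another probe) and Pfkfb4 (-0.59 ± 0.20), which set the level of the phosphofructokinase activator. Eno2, the neuronal enolase, was higher in neurons (-1.52 ± 0.33), and Aldoa (-0.011 ± 0.25, adjusted p = 0.98) and Eno1 (0.041 ± 0.22, adjusted p = 0.89) were not called. The glucose transporter Slc2a1 was higher in astrocytes (3.42 ± 0.24).

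Glycogen, the glucose store of astrocytes, had 11 of 17 genes higher in astrocytes and 2 in neurons, with a median of 1.27. Phkg1, a subunit of phosphorylase kinase (3.88 ± 0.38), Gbe1, the branching enzyme (2.60 ± 0.28), and Pygl, a phosphorylase (1.99 ± 0.25), were higher in astrocytes. Pygm, the muscle-type phosphorylase, was higher in neurons (-1.97 ± 0.42).

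In mitochondria, TCA cycle genes had a median of -0.51, 0.044 with the row 1 astrocyte arrays and -0.98 with the row 2 arrays. Idh2, the mitochondrial NADP-linked dehydrogenase (2.45 ± 0.28), and Pcx, pyruvate carboxylase, an astrocyte enzyme (1.95 ± 0.22), were higher in astrocytes. Dlat, a subunit of pyruvate dehydrogenase, was higher in neurons (-1.36 ± 0.28). Complex I, the entry of the respiratory chain, had 17 of 36 subunits higher in neurons and none in astrocytes, with 14 in the row 1 fit, 34 in the row 2 fit and 8 after quantile normalization. Ndufa5 was the 1 subunit past 4-fold (-2.03 ± 0.28). Fatty acid oxidation leaned to astrocytes (13 of 23, median 1.07), with Cpt1a (2.00 ± 0.27) and Cpt2 (2.45 ± 0.28), which carry fatty acids into mitochondria. The ketone-using enzymes Oxct1 (-1.32 ± 0.29) and Acat1 (-2.97 ± 0.21) were higher in neurons.

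Cholesterol synthesis is described as a task that astrocytes perform for neurons, and here its genes were higher in the neuron cultures. Of 24 genes 15 were higher in neurons, none in astrocytes, and the median was -1.45, or -1.46 with the row 1 and -1.58 with the row 2 astrocyte arrays alone. Mean levels of the list were 3.47, 2.62, 2.07 and 2.00 on neuron arrays 1 to 4 and 1.16, 1.13, 1.39 and 0.55 on astrocyte arrays 1 to 4. Neuron array 1 was the highest of the 8 and the groups did not overlap. Hmgcs1, which makes HMG-CoA, was at 4.56, 4.59, 4.71 and 3.52 on astrocyte control arrays 1 to 4 and 7.61, 7.04, 6.76 and 6.84 on neuron control arrays 1 to 4 (-2.71 ± 0.32, adjusted p = 1.1e-04). Astrocyte array 4 was the lowest and neuron array 1 the highest. Its promoter was the 1 of 17 in the list with the sterol regulatory element TCACNCCAC, which 0.999% of all promoters hold (searched as described above). Mvd (-3.01 ± 0.51), Fdps (-2.95 ± 0.38) and Dhcr7 (-2.92 ± 0.50), enzymes of later steps, behaved alike. The astrocyte medium held serum, a source of cholesterol, and medium and cell type cannot be told apart here. The cholesterol exporter Abca1 (2.97 ± 0.43) and the lipid droplet coats Plin2 (3.75 ± 0.31) and Plin3 (4.89 ± 0.52) were higher in astrocytes. Of 24 sphingolipid and ganglioside genes 13 were higher in neurons and 8 in astrocytes. On the neuron side St8sia3, a sialyltransferase, was at least 778-fold higher and B4galnt1, which commits lipids to complex gangliosides, differed by -3.68 ± 0.30.

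**Figure D5:**
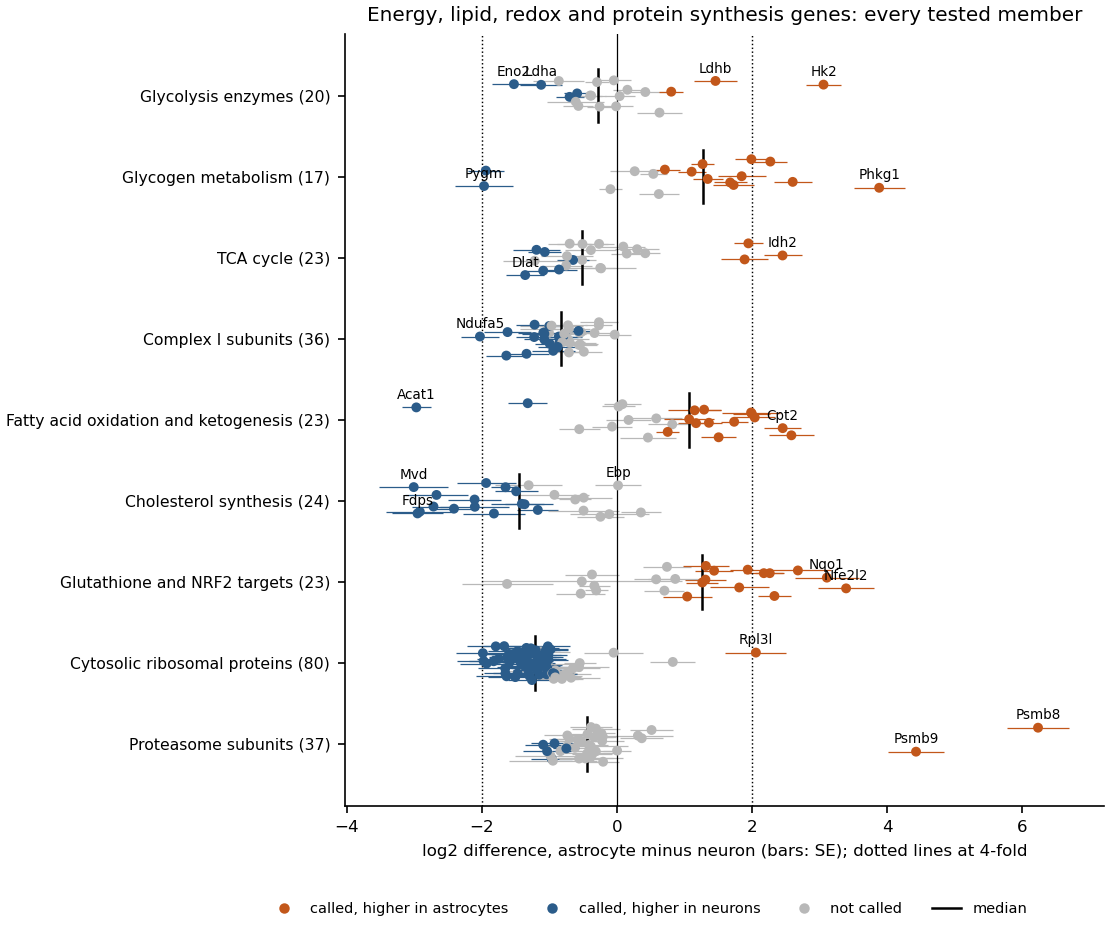
Log2 difference, astrocyte minus neuron, of every tested member of 9 lists of energy, lipid, redox and protein synthesis genes, with SE bars, black lines at the medians and dotted lines at 4-fold. Cholesterol synthesis and ribosomal protein genes lie mostly left of 0, glycogen, fatty acid oxidation and NRF2 genes right of it, and single members such as Hk2, Psmb8 and Psmb9 stand apart from their families.

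Transporters of other solutes divided without a lean: of 243 tested solute carriers outside families 1 to 7, 82 were higher in astrocytes and 76 in neurons, 46 and 34 of them at least 4-fold. Slc14a1, the urea transporter known from astrocytes, was at least 103-fold higher in astrocytes, and Slc15a3, a lysosomal peptide carrier (5.98 ± 0.25), and Slc39a4, a zinc importer (6.61 ± 0.38), followed. ABC transporters were higher in astrocytes in 16 of 39 cases and in neurons in 8, such as the organic anion pump Abcc3 (5.27 ± 0.29), against Abcc8, the sulfonylurea receptor, in neurons (-5.34 ± 0.26).

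Amino acid and nucleotide pathways showed small differences with single large ones. Of 22 serine, glycine and one-carbon genes none was 4-fold apart, and Phgdh, the first step of serine synthesis, was slightly higher in neurons (-0.68 ± 0.21). Bcat1, the cytosolic branched-chain transaminase (-5.34 ± 0.20), and Impdh1, of guanine nucleotide synthesis (-3.97 ± 0.22), were higher in neurons. Sat1, which acetylates polyamines (2.99 ± 0.44), and Oat, ornithine aminotransferase (2.76 ± 0.34), were higher in astrocytes. Among retinoid genes Aldh1a1 (6.75 ± 0.46) was higher in astrocytes and Aldh1a3 in neurons (-7.12 ± 0.40, above background on 1 astrocyte array), 2 enzymes of the same step. Of 20 hypoxia genes 9 were higher in astrocytes and 4 in neurons, with Car9, a carbonic anhydrase (7.56 ± 0.39, above background on 2 neuron arrays), and Adm, adrenomedullin (4.46 ± 0.33), against Vldlr, a lipoprotein receptor (-3.58 ± 0.22), and Hif1a not called (-0.22 ± 0.33, adjusted p = 0.6).

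Redox defence was on the astrocyte side. NRF2, encoded by Nfe2l2, turns on glutathione and detoxifying enzymes. Of 23 listed genes 13 were higher in astrocytes and 0 in neurons. Nfe2l2 was at 5.91, 5.96, 4.87 and 5.17 on astrocyte control arrays 1 to 4 and 0.95, 2.33, 2.56 and 2.50 on neuron control arrays 1 to 4 (3.39 ± 0.42), lowest on neuron array 1. The target Nqo1 (3.11 ± 0.47) and the peroxidase Prdx6 (2.33 ± 0.25) were higher too, while Keap1, which holds NRF2 down (-0.31 ± 0.17, adjusted p = 0.17), Sod1 (-0.33 ± 0.23, adjusted p = 0.27) and Sod2 (-0.37 ± 0.40, adjusted p = 0.47) were not called. Of 22 glutathione S-transferases 14 were higher in astrocytes, such as Gstm2 (4.83 ± 0.33) and Gstt1 (3.93 ± 0.25), and Mgst3 was higher in neurons (-3.85 ± 0.24). Among metal-handling genes, Cp, ceruloplasmin, which astrocytes use to export iron, differed by 7.36 ± 0.43, and the transferrin receptor Tfrc was higher in neurons (-2.30 ± 0.34).

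Degradation genes leaned to astrocytes as well. Of 29 lysosome and autophagy genes 14 were higher in astrocytes, including the hexosaminidase subunit Hexa (2.10 ± 0.19), and Map1lc3a, an autophagosome protein, was higher in neurons (-2.50 ± 0.34). Of 13 cathepsins 9 were higher in astrocytes. Ctss, a cathepsin of antigen-presenting cells and microglia, was at 4.59, 4.67, 4.73 and 4.74 on astrocyte control arrays 1 to 4 and -4.95, -3.04, -2.19 and -2.30 on neuron control arrays 1 to 4 (7.80 ± 0.55), nearly constant over the astrocyte arrays. The vacuolar ATPase that acidifies lysosomes and synaptic vesicles leaned the other way, 13 of 21 subunits higher in neurons, among them Atp6v1g2 (-2.68 ± 0.20). Proteasome subunits had a median of -0.43, which was 0.11 in the row 1 fit and -1.09 in the row 2 fit. The 2 members higher in astrocytes, Psmb8 (6.23 ± 0.46) and Psmb9 (4.43 ± 0.42), are the interferon-inducible subunits of the immunoproteasome.

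In the endoplasmic reticulum, Pdia4, a disulfide isomerase (2.80 ± 0.23), and Dnajc3 (2.33 ± 0.30) were higher in astrocytes, and the stress-induced Asns, asparagine synthetase (-2.89 ± 0.42), and Trib3 (-2.08 ± 0.44) in neurons. Canx (0.055 ± 0.22, adjusted p = 0.85) and Herpud1 (-0.034 ± 0.23, adjusted p = 0.91) were not called. Export genes of the COPII coat included Sec24d, which serves collagen export (2.23 ± 0.18), and Kdelr3 (2.13 ± 0.41) on the astrocyte side and Sec23a on the neuron side (-1.05 ± 0.18). Small heat shock proteins were higher in astrocytes for Hspb1 (5.97 ± 0.73) and Hspb8 (5.53 ± 0.48), while Hspb3 was at least 14-fold higher in neurons.

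Ribosomal protein genes differed by small amounts in one direction. Of 80 tested, 63 were higher in neurons, none of them by 4-fold, with a median of -1.22. Mean levels were 6.52, 6.74, 6.76 and 6.72 on neuron arrays 1 to 4 and 6.15, 6.13, 4.81 and 4.98 on astrocyte arrays 1 to 4. The row 2 astrocyte arrays (3 and 4) were lowest, and the row 1 arrays lay just under the neurons. The median was -0.60 in the row 1 fit, -1.84 in the row 2 fit and -0.56 after quantile normalization, which left 23 called. Rps26 (-1.98 ± 0.40) and Rps2 (-1.97 ± 0.40) were the largest. Rpl3l, a muscle paralogue, was the 1 gene higher in astrocytes (2.06 ± 0.45). Mitochondrial ribosomal proteins had no settled direction, with 18 of 77 higher in neurons over all arrays but 19 higher in astrocytes and 11 in neurons in the row 1 fit. Ribosomal protein genes have many near-identical pseudogenes, to which the probes may also bind.

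Motile cilia beat on ependymal cells, and the genes of their axoneme were on the astrocyte side. Of 22 tested 19 were higher in astrocyte cultures, 18 of them at least 4-fold, and none in neurons. Foxj1 was at 5.70, 5.78, 5.07 and 5.02 on astrocyte control arrays 1 to 4 and -0.65, 0.56, 0.14 and 0.061 on neuron control arrays 1 to 4. All 4 astrocyte arrays lay well above the neuron arrays. Cfap52 (6.73 ± 0.32), Lrrc23 (5.76 ± 0.47) and Cfap44 (5.98 ± 0.64, above background on 3 neuron arrays) are axoneme proteins. Rfx3, a ciliary transcription factor (0.27 ± 0.18, adjusted p = 0.25), and Rsph9, a radial spoke protein (0.27 ± 0.24, adjusted p = 0.36), were not called. Of the ependymal and choroid plexus markers above, 5 of 7 tested had the direction of this list. The summed signal of those markers was 58.2 to 89 on astrocyte and 3.35 to 7.09 on neuron arrays. Foxj1 is itself 1 of the markers and made up much of the astrocyte sum, so the sum is no separate support. Of 26 genes of the primary cilium and its transport 15 were higher in astrocytes by smaller amounts, such as Ift80 (2.53 ± 0.26), and Kif3a was higher in neurons (-1.23 ± 0.16).

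Interferon signals through STAT and IRF factors to a set of antiviral genes. All 26 tested interferon response genes were higher in astrocyte cultures, 25 of them at least 4-fold (96.2% against the 13.3% of all genes), with a median of 6.26 (6.22 with bounds). Mean levels were 3.12, 3.25, 1.98 and 1.73 on astrocyte arrays 1 to 4 and -3.83, -3.07, -3.08 and -3.06 on neuron arrays 1 to 4. Row 1 astrocyte arrays were higher than row 2 arrays, and both lay far above every neuron array. Ifit1 was at 3.77, 3.97, 1.70 and 1.19 on astrocyte control arrays 1 to 4 and above background on no neuron array. Ifit3, of the same family, was at 6.22, 6.26, 4.13 and 3.88 on astrocyte control arrays 1 to 4 and -4.47, -3.01, -3.0 and -3.13 on neuron control arrays 1 to 4 (8.53 ± 0.63), with the same order of rows. Among the smallest differences of the list were those of Stat2 (1.72 ± 0.21) and Irf9 (2.16 ± 0.26), factors that carry the signal. Of 56 genes with interferon-induced family names 51 were higher in astrocytes and none in neurons.

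The interferon-stimulated response element GAAANNGAAA was sought on both strands in the same promoter windows. It was present in 8 of 21 interferon response genes with a promoter in the table, in 20 of 43 genes of the wider family and in 3.03% of all 16916 promoters. The genes that carry it with the largest differences were Ifit1 and Oas1a, an activator of antiviral RNA decay (8.58 ± 0.46, above background on 3 neuron arrays). Their windows are shown in the gene's direction with the element in capitals, chr19:34640639-34640888, plus strand, for Ifit1, and chr5:120907526-120907775, minus strand, for Oas1a.
Ifit1: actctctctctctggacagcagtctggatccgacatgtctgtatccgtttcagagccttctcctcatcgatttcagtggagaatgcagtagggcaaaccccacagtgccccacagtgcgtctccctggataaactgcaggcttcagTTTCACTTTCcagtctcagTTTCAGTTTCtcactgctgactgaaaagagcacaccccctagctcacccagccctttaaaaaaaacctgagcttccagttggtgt
Oas1a: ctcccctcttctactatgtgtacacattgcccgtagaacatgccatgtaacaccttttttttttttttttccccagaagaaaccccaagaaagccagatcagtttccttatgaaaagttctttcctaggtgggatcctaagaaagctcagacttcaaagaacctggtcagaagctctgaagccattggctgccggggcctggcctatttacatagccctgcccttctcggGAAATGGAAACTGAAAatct
Ifit1 carries 2 copies on the opposite strand, which begin 104 and 85 bases before the start. In Oas1a a pair of overlapping copies begins 20 and 14 bases before it.

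Complement proteins tag debris and synapses. Of 23 tested, 19 were higher in astrocytes and 2 in neurons, 17 and 1 of them at least 4-fold, with a median of 4.82. C3, the central component, was at 8.37, 8.22, 8.49 and 8.55 on astrocyte control arrays 1 to 4 and -0.28, -0.19, 0.14 and -0.093 on neuron control arrays 1 to 4 (8.51 ± 0.18, adjusted p = 7.5e-08). The arrays of each group were close together, those of the neurons near the 75th percentile. C1ra, a protease of the first component (7.84 ± 0.28), and Serping1, its inhibitor (7.21 ± 0.23), were higher as well. Cd55, a membrane inhibitor, was not called (0.047 ± 0.22, adjusted p = 0.87). Of 27 tested genes of the MHC, which presents antigen, 20 were higher in astrocytes, for instance H2-K1 (5.21 ± 0.18) and the peptide transporter Tap2 (4.90 ± 0.27). Genes of this region are close copies of each other.

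Of 23 NF-kappaB targets 20 were higher in astrocytes and none in neurons. Mean levels were 2.23, 2.31, 1.11 and 1.33 on astrocyte arrays 1 to 4 against -2.42, -2.32, -2.29 and -2.30 on neuron arrays 1 to 4. The chemokine Ccl2 was at 4.56, 4.91, 0.79 and 1.45 on astrocyte control arrays 1 to 4 and -4.39, -3.89, -4.69 and -4.70 on neuron control arrays 1 to 4 (7.35 ± 0.90). Astrocyte arrays 1 and 2 were the highest. Ccl5 (7.42 ± 0.50) was similar, Icam1, an adhesion molecule for leukocytes, was at least 45.7-fold higher, and Nos2, the inducible nitric oxide synthase, was not called (-0.21 ± 0.18, adjusted p = 0.37). Toll-like receptors, which sense microbes, were higher in astrocyte cultures for Tlr2 (6.55 ± 0.50), Tlr4 (at least 49.3-fold) and Tlr1 (at least 18.7-fold). In prostaglandin and leukotriene synthesis 9 of 14 were higher in astrocytes, including Ptgs1, cyclooxygenase 1 (4.84 ± 0.36), and Alox5ap (5.43 ± 0.41), both also expressed by microglia. Microglial markers, whose summed signal is given above, moved in the same direction as the interferon, complement, MHC, NF-kappaB, Toll-like receptor and prostaglandin lists, and their part was not tested.

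Cytokine families had more members on the astrocyte side. Of 33 chemokines and their receptors 18 were higher in astrocyte cultures and 11 in neurons, where Ackr1, a decoy receptor (-3.95 ± 0.30), and the migration cue Cxcl12 (-3.69 ± 0.84, above background on 2 astrocyte arrays, but 0.78 ± 0.31 with another probe) stood. Of 44 interleukins and receptors 24 were higher in astrocytes and 11 in neurons. Il10ra, the interleukin 10 receptor (5.55 ± 0.27, above background on 3 neuron arrays), was on the astrocyte side, and the neuron side held the synaptic relatives Il1rapl2 (at least 40.7-fold) and Il1rapl1 (-2.45 ± 0.24). In the TNF superfamily Tnf itself was at least 21.6-fold higher in astrocyte cultures, and Tnfrsf21, death receptor 6 of developing axons, was higher in neurons (-2.70 ± 0.27).

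Of 28 reactive astrocyte genes 24 were higher in astrocytes. Tm4sf1, a tetraspanin-like protein (8.10 ± 0.38), Cd109 (7.73 ± 0.44) and the interferon-induced GTPase Gbp2 (7.64 ± 0.66) were the largest. B3gnt5, a glycosyltransferase of that list, was higher in neurons (-2.68 ± 0.32). Of 24 genes of astrocyte homeostasis 16 were higher in astrocytes by a median of 1.43, less than the 5.50 (5.40 with bounds) of the reactive list. The difference between these medians was not tested.

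Of 26 cell cycle genes 2 were higher in astrocytes and 1 in neurons, and the median of 0.022 was -0.12 with the row 2 astrocyte arrays. Of 70 genes of the MCM, ORC and cyclin families, 17 were higher in astrocytes, 8 of them at least 4-fold, and 13 in neurons. Mki67, present in all cycling cells, was at 1.86, 1.93, 2.07 and 2.41 on astrocyte control arrays 1 to 4 and 1.94, 3.0, 1.62 and 1.74 on neuron control arrays 1 to 4 (-0.009 ± 0.32, adjusted p = 0.98). The groups overlapped. Ccnd1, cyclin D1, was higher in astrocytes (2.15 ± 0.44). Genes of p53 and senescence were higher in astrocytes in 15 of 22 cases, among them the cell cycle inhibitors Cdkn2b (3.45 ± 0.52) and Cdkn2a (2.93 ± 0.43), and Plk2 was higher in neurons (-2.34 ± 0.26). The immediate early genes of activity split, with Nr4a2 (-2.94 ± 0.24) higher in neurons and Fos (2.71 ± 0.46) in astrocytes.

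Among the genes most alike between the cultures, of those above background everywhere with an SE under the median, were Tdrd3, a tudor protein (-5.4e-05 ± 0.19), Irx4, a homeobox factor (0.00033 ± 0.26), Rab27b, a secretory GTPase (0.00036 ± 0.28, but -1.57 ± 0.33 with another probe), and Zfp275, a zinc finger protein (-0.00086 ± 0.21). They were chosen for their small differences, and no test of equality was made.

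The same contrast was read in the Klotho arrays, which share no array with it by the scanner files' sample labels, though the value table assigns 4 astrocyte arrays otherwise. Of 9003 called genes tested there, 8953 (99.4%) had the same direction. Of 4101 genes at least 4-fold apart 4096 did, and the exceptions were Rgs16, Calcr, Cilp2, Gm4841 and Pzp, named after their values were seen. In those arrays 30.7% of genes were called higher in astrocytes and 34.9% in neurons. The neuron Klotho arrays lay on the slide of the neuron controls and the astrocyte Klotho arrays on a slide of their own. Cell type, slide, medium and donor age cannot be told apart there either. The difference between cell types itself differed between vehicle and Klotho arrays for 23 of 30545 units (interaction term in limma, adjusted p under 0.05), with 1473 at an unadjusted p under 0.05.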

How the data were processed

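Total RNA (200 ng) was labelled with Cy3 and hybridised to one-colour mouse arrays of design 028005. Spot intensities were deposited as the authors' scanner output of Agilent Feature Extraction 12.0.3.1, per the file headers, background-subtracted within each array and not normalized between arrays. The deposited value table holds scores, each column scaled to mean 0 and SD 1, from steps not given in the sources used here. Its columns matched arrays within 0.005.

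Processed signals were taken to log2, averaged over replicate spots and shifted by each array's 75th percentile. Control spots were left out, and so were spots flagged as outliers unless all spots of a probe were flagged. A unit was tested if every array of 1 group or the other (4 arrays each) showed it well above background, and a gene was represented by its brightest probe. Of 55681 probes, 28331 had a symbol through RefSeq. Vehicle groups were compared with lmFit and eBayes in limma 3.58.1 (R 4.3.3), without covariates. Array number limits the precision. The members and gene lists were chosen with earlier results of these data known. At most 10 genes on either side by size of difference or bound, up to 4 called members per direction and 3 of the smallest difference in each list, the markers and the 5 most alike genes are named, and some genes that the rule picks are not reported here. Alternatives were other centring, quantile normalization, normexp (offset 50, on median spot signals, the scanner files used having no mean signal column), other filters, probe rules and array assignments, a replicate block and leaving out each array.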

Additional observations from a re-analysis of the deposited data

Results flagged for a closer look

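In 10 of 76 groups of 4 arrays examined, 1 array lay far from the other three by Dixon's test, which chance alone flags in about 1 of 20 groups. In the neuron controls this was array 1 for each of the following. Its share of spots well above background was 65.0%, the lowest of the group. It was the highest for Grin1 (3.21), Kcnma1 (4.58) and Syt1 (7.0) and for the mean level of synaptic vesicle and active zone genes (2.75). It was the lowest for Ifit3 (-4.47), Nfe2l2 (0.95) and the means of cytosolic ribosomal protein genes (6.52) and interferon response genes (-3.83). In the astrocyte controls, array 4 was the lowest for Hmgcs1 (3.52). No gene or list level named here reached the other group.

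The difference between cell types was not the same in vehicle and Klotho arrays for liver genes (interaction term in limma, 8 vehicle against 8 Klotho arrays). The vehicle difference minus the Klotho difference was -6.77 for Alb, -6.40 for Ahsg and -6.09 for Serpina1a, with a smallest adjusted p of 2.3e-05. Alb, Ahsg and Serpina1a were among 20 genes with a symbol past 0.05. Alb and Ahsg were above background on no astrocyte control array and did not pass the filter in the Klotho arrays. Their values here rest partly on signals not above background and are not measured sizes. All 4 neuron controls had a higher summed liver signal than the neuron Klotho arrays, as given above. The cause was not tested.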

How the results depend on the processing

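The counts of called and of at least 4-fold different genes stayed within 1.5 times their values under all settings run, except the at least 4-fold higher genes of neurons among units above background on all 8 arrays, which were 1338 against 2109; that filter drops genes seen in 1 group only. Leaving out each array in turn gave 3827 to 4376 genes called higher in astrocytes and 4422 to 5169 in neurons, and 2124 to 2300 and 2076 to 2148 at least 4-fold apart. Lists with a median difference of at least 1 numbered 30 to 34 in astrocytes (34 with all arrays) and 30 to 36 in neurons (33). Median centring and quantile normalization moved no split of the calls by more than 10 percentage points, and quantile normalization moved the median of all units from -0.21 to -0.11. With normexp, 1533 and 1503 genes were at least 4-fold apart. Called at the threshold by the deposited value table, whose scores have no fold, were 4808 and 4770 genes. The replicate numbers did not pair the arrays (same-number correlations of deviations 0.10, 0.04, -0.14 and 0.28), and with the number as a replicate block 4028 and 4732 genes were called, 2198 and 2109 of them at least 4-fold apart. No named gene reversed. Of the named genes, 18 lost their call in at least 1 setting, and those that lost it without 1 of the arrays were Camk1, Cdh2, Fhl2, Gabrb1, Iqsec1, Pfkfb4, Phgdh and Vamp1. Medians changed sign in 36 of 132 lists. Of these, 4 had a median of at least 0.5 in size: neurogenic bHLH factors (-1.71, and 0.67 above background on all 8 arrays), heparan and chondroitin sulfate synthesis (-0.52, and 0.001 by the value table), and the TCA cycle and mitochondrial ribosomal proteins (0.044 and 0.12 with the row 1 astrocyte arrays). Of 2109 genes with several called probes, 86 (4.08%) had probes called in both directions. Values near background limit small differences of dim genes.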
